A study of Mus musculus with 4 samples.

Results

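The cells described here are the Pf4-rich cells of the NPMc+ library, labelled megakaryocyte-primed, among cells sorted as mouse long-term hematopoietic stem cells (LT-HSCs). They were chosen by 1 transcript: a kept cell with at least 3 unique molecular identifiers (UMIs, each standing for 1 captured mRNA molecule) of Pf4 was a member. Of 2375 kept cells in the library, 646 were members, out of 10608 kept cells in all 4 libraries. They were set against the 961 cells of the same library with 0 UMIs of Pf4, called Pf4-null. The 537 cells with 1 UMI and the 231 with 2 entered neither set. Because Pf4 chose the cells, it is left out of every result below except the account of how many members there were.

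The study profiled LT-HSCs of 4 genotypes with the 10x Genomics 3' v2 chemistry, 1 library per genotype. The cells came from crushed marrow of fore and hind limbs and sternum of C57BL/6 mice aged 8 to 11 weeks, and were sorted by flow cytometry. The genotypes were MxCRE (the reference control, called Mx), the single mutants NPMc+ and Flt3-ITD, and the double mutant NPMc+/Flt3-ITD. Mx-Cre is a recombinase driven by an interferon-inducible promoter, NPMc+ is a mutant nucleophosmin that is held in the cytoplasm, and Flt3-ITD is an internal tandem duplication of a cytokine receptor gene; both mutations occur in acute myeloid leukemia. The labels name MxCRE for the control alone and give neither an induction treatment nor the number of animals. UMIs of Xist and of Y-linked genes showed cells of both sexes in each library, so each held more than 1 animal. There were no replicate libraries, so genotype, animals and library cannot be told apart.

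Pf4 encodes platelet factor 4, a chemokine that megakaryocytes pack into the alpha granules of platelets. Megakaryocytes are the marrow cells that shed platelets, and they arise from stem cells through progenitors that progressively switch on platelet receptors, granule proteins and the cytoskeleton used for platelet release. A share of LT-HSCs already transcribes some of these genes while still carrying stem cell markers, which is called megakaryocyte or platelet priming. The transcription factor Gata1 and ETS factors such as Fli1 are known activators of platelet-lineage genes, including Itga2b and the Gp1b-Gp9-Gp5 receptor complex.

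Members made up 27.2% of kept NPMc+ cells (exact 95% binomial interval 25.4% to 29.0%). The same rule took 177 cells or 7.03% of Mx (6.06% to 8.10%), 69 or 2.08% of NPMc+/Flt3-ITD (1.62% to 2.62%) and 119 or 4.97% of Flt3-ITD (4.14% to 5.92%). The NPMc+ share lay above the 3 others and its interval overlapped none of theirs. These intervals, like those on ratios below, cover counting error only. Members held from 3 to 342 UMIs of Pf4, with a median of 7, and 109 of them had exactly 3. Members were also the deeper cells, with a median of 13313 UMIs against 7942 in Pf4-null cells. Read after every cell was thinned at random to 3000 UMIs, Pf4 reached 3 UMIs in 11.3% of NPMc+ cells, 2.03% of Mx, 0.736% of NPMc+/Flt3-ITD and 1.79% of Flt3-ITD. The order of the 4 libraries was the same at equal depth, but the intervals of Mx (1.498% to 2.695%) and Flt3-ITD (1.278% to 2.443%) then overlapped.

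The share of members also moved with sex. Among NPMc+ cells with UMIs of Y-linked genes and none of Xist it was 30.8% (28.2% to 33.6%), and among cells with the reverse it was 16.8% (13.6% to 20.4%). In NPMc+/Flt3-ITD the male and female shares were 1.69% and 5.59%, the opposite order. In Mx they were 7.47% and 6.86% and in Flt3-ITD 5.78% and 3.11%. Which animals gave the cells of either sex is not known, so sex and animal cannot be told apart. A Pf4 UMI can also come from free RNA in the droplets. Erythroid cells should lack Pf4, and 4 of 31 NPMc+ cells with at least 10 UMIs of Car1 and Klf1 had a Pf4 UMI after thinning (12.9%, 3.63% to 29.8%; median depth 12895 UMIs). With the lower limit of 3 such UMIs it was 30 of 84 cells (35.7%, 25.6% to 46.9%; median depth 12487 UMIs). NPMc+ cells under that lower limit had one in 37.2% (median depth 9674 UMIs), so the share in the wider erythroid class was not below that of other cells.

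For expression, 642 members and 865 Pf4-null cells had the 3000 UMIs needed for thinning; 4 and 96 were left out. Thinned UMIs were summed per set and scaled to the total of the set as CPM. Library totals ran from 20991611 to 27074489 UMIs over 2472 to 3532 barcodes. Thinned members had a median of 1469 genes and 0.546% mitochondrial UMIs, against 1487 genes and 0.575% in Pf4-null cells. UMIs of both sexes, which a droplet with cells of a male and a female would hold, were read before thinning, when members were deeper. They were present in 18.5% of members (119 cells) and 9.94% of Pf4-null cells (86 cells). In the 5% of kept cells with most UMIs lay 89 members against 3 Pf4-null cells. No doublet caller was run; the results were instead recomputed without either kind of cell. Barcode sequences that also occurred among kept cells of another library belonged to 5 members and 10 Pf4-null cells. Immunoglobulin transcripts stood apart in this library: 1 member held 1748 UMIs of the B cell list among its 3000, while no Pf4-null cell held more than 5.

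The label was first checked on the markers given for it. Gp1bb, the beta subunit of the platelet receptor for von Willebrand factor, stood at 82.6 CPM in members and 14.6 CPM in Pf4-null cells, a ratio of 5.64 (3.94 to 8.26). It was detected in 131 members or 20.4% (17.4% to 23.7%) and in 32 Pf4-null cells or 3.70% (2.54% to 5.18%). Itga2b, the integrin alpha IIb (CD41) that binds fibrinogen on platelets, stood at 385 and 155 CPM, a ratio of 2.48 (2.19 to 2.80), and was detected in 64.3% and 31.8% of cells. Both markers were thus higher in members. Markers of the sorted LT-HSCs, which primed stem cells still carry by the description above, were detected in fewer members. The label therefore names the platelet-lineage transcripts and does not state that members kept a stem cell identity. Procr, the endothelial protein C receptor (EPCR) used to mark LT-HSCs, had a UMI in 8.88% of members and 32.4% of Pf4-null cells, and Hlf, a stem cell transcription factor, in 13.4% and 39.2%. Several genes of mature megakaryocytes were not detected: Tubb1, the beta tubulin of platelets, had 0 UMIs in members, as had Gp6, Cd226, P2ry12, Mpig6b and Myl9. For each of them, 0 of 642 thinned members allows a share of cells with a UMI of up to 0.467%, taken as 3 cells of the total, or 0.573% as the upper end of the exact interval.

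Promoter sequences of Gp1bb, Itga2b, Gp5 and Gp9 are shown because these genes encode parts of the 2 platelet receptor complexes on which the label rests, and because all 4 were higher in members. They run from 250 bases before to 50 after the gene start, 5′ to 3′ on the strand of the gene, from RefSeq on GRCm38.p6 (mm10). Gp1bb lies at chr16:18622354-18622653, minus strand, Itga2b at chr11:102469834-102470133, minus strand, Gp5 at chr16:30310732-30311031, minus strand, and Gp9 at chr6:87777820-87778119, plus strand. Capitals mark 2 motifs on either strand: the GATA motif AGATAA (reverse TTATCT) and the ETS motif AGGAAG (reverse CTTCCT).
Gp1bb: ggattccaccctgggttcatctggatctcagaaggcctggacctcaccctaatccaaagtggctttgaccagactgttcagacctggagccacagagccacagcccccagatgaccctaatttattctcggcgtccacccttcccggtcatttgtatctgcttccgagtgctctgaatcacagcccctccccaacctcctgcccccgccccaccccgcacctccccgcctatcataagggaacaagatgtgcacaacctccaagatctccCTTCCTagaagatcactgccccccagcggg
Itga2b: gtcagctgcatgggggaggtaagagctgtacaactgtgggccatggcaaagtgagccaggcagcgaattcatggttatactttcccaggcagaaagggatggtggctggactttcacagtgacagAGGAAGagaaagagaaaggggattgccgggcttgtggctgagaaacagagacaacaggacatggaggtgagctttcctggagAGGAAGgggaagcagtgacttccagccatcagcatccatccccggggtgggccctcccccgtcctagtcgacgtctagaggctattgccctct
Gp5: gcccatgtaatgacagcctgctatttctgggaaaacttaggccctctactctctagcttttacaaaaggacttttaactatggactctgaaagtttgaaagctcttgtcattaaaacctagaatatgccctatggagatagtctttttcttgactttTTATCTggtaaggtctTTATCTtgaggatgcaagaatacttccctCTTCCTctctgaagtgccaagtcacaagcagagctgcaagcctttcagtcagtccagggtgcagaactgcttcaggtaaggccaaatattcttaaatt
Gp9: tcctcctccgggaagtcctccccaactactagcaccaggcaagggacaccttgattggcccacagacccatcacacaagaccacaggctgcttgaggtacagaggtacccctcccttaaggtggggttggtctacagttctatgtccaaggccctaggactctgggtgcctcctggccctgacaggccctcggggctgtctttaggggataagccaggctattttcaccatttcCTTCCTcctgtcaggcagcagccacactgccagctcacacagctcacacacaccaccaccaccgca
The GATA letters occurred 2 times in Gp5 and in none of the other 3 windows, and the ETS letters 2 times in Itga2b and once in each of the others. Over all 27025 promoters of the table, 11.4% held the GATA letters and 35.1% the ETS letters. Of the 181 genes higher in members with a promoter in the table, 8.29% held the GATA letters and 35.4% the ETS letters, and of 257 lower genes 7.78% and 40.1%. Genes at the 30 CPM floor used below held them in 6.18% and 33.6%. A match is a description of these letters and not of binding.

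Members and Pf4-null cells differed in cell cycle, stem cell, immediate early and platelet-lineage genes, among others. A gene was compared where its mean over both sets reached 30 CPM, and it counted as higher or lower past 1.5-fold. A gene could thus reach the floor only through the set where it was high, as Gp1bb did. Counts of higher and lower genes, also those by list, follow in part from this. Of 4750 such genes, 232 were higher in members (4.88%) and 341 lower (7.18%). With 1 library these are counts of genes past a fold, with no test. The choice of fold and floor sets their number, and they are read against these 2 percentages. A second random thinning gave 229 and 333, of which 165 and 231 were among the same genes, so a single low gene near the fold can move across it. Without cells holding UMIs of both sexes the counts were 229 and 375, sharing 207 and 311 genes, and without the 5% of cells with most UMIs 201 and 309, sharing 185 and 292. Over 22 alternatives the log2 ratio of Gp1bb ran from 2.20 to 2.91, that of Itga2b from 1.06 to 1.46 and that of Procr from -2.61 to -1.64. The highest ratios other than immunoglobulins were those of Spc24 (6.56), Gp1bb, Tuba8 (5.45), Ube2c (4.75), Cdca3 (4.55), Cavin2 (4.44), Tk1 (4.39), Pclaf (4.31) and Gp5 (4.08). They joined mitosis and DNA replication genes with platelet-lineage genes.

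**Figure D1:**
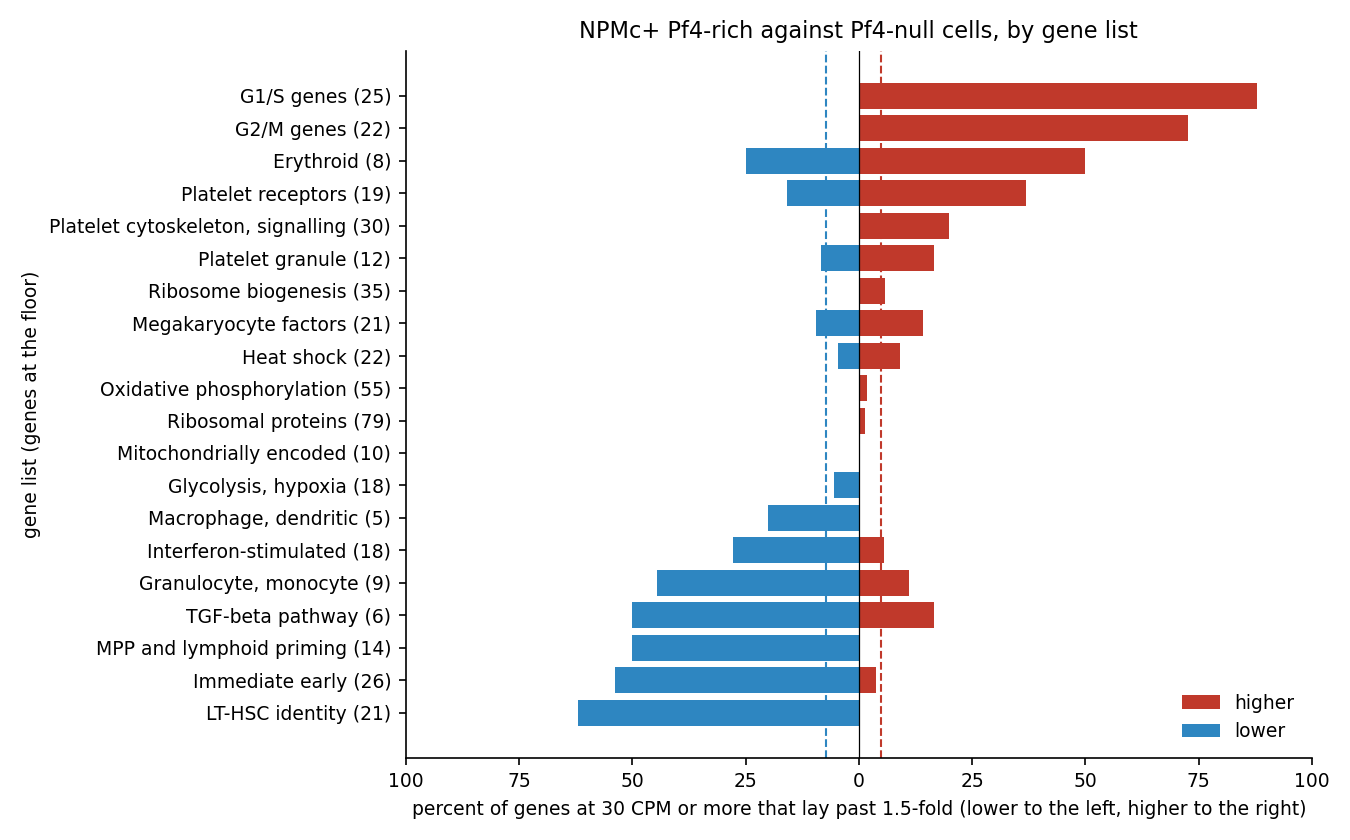
Percent of each list's genes at 30 CPM or more that lay past 1.5-fold in NPMc+ members against Pf4-null cells (x axis, lower to the left in blue and higher to the right in red), with lists on the y axis and the number of genes at the floor in brackets. Dashed lines mark the 4.88% higher and 7.18% lower over all genes; the G1/S list (22 of 25 higher) and the LT-HSC list (13 of 21 lower) stand farthest from them.

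Platelet receptor genes were the lineage group that the label names. Of 33 receptor genes, 19 reached the floor, 7 were higher (Gp1bb, Gp5, Treml1, Gp9, Itga2b, F2r and Cd9) and 3 lower (Esam, Pear1 and Pecam1), with a median log2 ratio of 0.27 against 0.00 over all genes. Pecam1 was past the fold in only 6 of 22 alternatives and not with a second random thinning. Gp5, which joins the von Willebrand factor receptor, stood at 100.7 CPM in members and 24.7 in Pf4-null cells (ratio 4.08, 3.06 to 5.51). Gp9, the platelet glycoprotein IX of the same complex, stood at 164 and 62.8 CPM (ratio 2.60, 2.15 to 3.17). These 3 chains of the receptor were therefore higher, while Gp1ba, its ligand-binding chain, was at 7.27 and 2.697 CPM, below the floor. Treml1, a receptor of platelet alpha granules, stood at 47.2 and 14.6 CPM (ratio 3.23, 2.19 to 4.84) and met both limits in 15 of 22 alternative settings. F2r, the thrombin receptor PAR1, stood at 275 and 129 CPM (ratio 2.13, 1.85 to 2.45), and Cd9, a tetraspanin of platelets and of primed stem cells, at 438 and 242 CPM (ratio 1.81, 1.63 to 2.01). F2rl2, the thrombin co-receptor PAR3, was below the floor at 49.3 and 7.71 CPM. Summed over the list, members had 2610 CPM and Pf4-null cells 1908, a ratio of 1.37 (1.32 to 1.42).

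Not all receptors went the same way. Esam, an adhesion molecule of stem cells, endothelium and platelets, stood at 36.3 CPM in members and 73.2 in Pf4-null cells, 2.02-fold lower (1.52 to 2.69). Pear1, a platelet aggregation receptor, stood at 33.2 and 50.5 CPM. Itgb3, the beta chain that pairs with Itga2b, was at 4.15 and 6.55 CPM, too low to compare.

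Of 40 platelet cytoskeleton and signalling genes, 30 reached the floor, of which 6 were higher and none lower (median log2 ratio 0.26). Tuba8, an alpha tubulin of the platelet lineage, stood at 96.6 CPM in members and 17.7 in Pf4-null cells (ratio 5.45, 3.93 to 7.70). Cavin2, a coat protein of caveolae known from platelets, stood at 63.3 and 14.3 CPM (ratio 4.44, 3.05 to 6.60). Rap1b, the small GTPase that switches on platelet integrins, stood at 505 and 215 CPM (ratio 2.35, 2.12 to 2.61). Plek (2.09), the kinase C substrate pleckstrin, Fyb (1.71), an adaptor of integrin signalling, and Fermt3 (1.54), the integrin activator kindlin-3, completed the 6. Several of these act on the integrin encoded by Itga2b.

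Granule genes were less uniform: of 29 matched genes 12 reached the floor, with Tgfb1 and Rab27b higher and Selp lower. Tgfb1, a growth factor stored in platelets and active on stem cells, stood at 709 CPM in members and 388 in Pf4-null cells (ratio 1.82, 1.68 to 1.98). Rab27b, a GTPase of granule transport, stood at 39.98 and 22.4 CPM. Selp, the alpha granule adhesion receptor P-selectin that is also a gene of aged stem cells, stood at 45.7 and 74.4 CPM, 1.63-fold lower (1.26 to 2.12), and was past the fold in 17 of 22 alternatives. Vwf, von Willebrand factor, a marker of platelet-biased LT-HSCs, was below the floor at 27.0 and 18.1 CPM, and its interval held no difference (ratio 1.49, 0.985 to 2.26). Ppbp, the chemokine next to Pf4 in platelet granules, was at 14.5 and 3.08 CPM, and Clu, clusterin, at 11.4 and 17.7 CPM.

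Of 21 megakaryocyte transcription and RNA-binding factors at the floor, 3 were higher and 2 lower, and the median log2 ratio was 0.01. Gata1, the factor of erythroid and megakaryocytic cells, stood at 85.2 CPM in members and 35.8 in Pf4-null cells (ratio 2.38, 1.83 to 3.10). Mef2c, which acts in megakaryocyte and lymphoid development, stood at 317 and 168 CPM (ratio 1.88, 1.66 to 2.14). Erg, an ETS factor of stem cells, and Rbpms, an RNA-binding protein, were lower, Erg at 68.0 against 121 CPM. Gata2 (ratio 1.08), Fli1 (1.24), Nfe2 (0.844), Zfpm1 (1.41) and Gfi1b (1.496) were within 1.5-fold. Gfi1b lay at the edge (interval 1.20 to 1.86) and kept this call in 12 of 22 alternatives. As a list the factors lay where all genes did, with Gata1 the highest of them.

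Erythroid genes shared the direction in part: 4 of 8 at the floor were higher and 2 lower. Icam4, an erythroid adhesion molecule, stood at 119 CPM in members and 41.2 in Pf4-null cells (ratio 2.90, 2.29 to 3.68). Aqp1, a water channel of red cells, stood at 96.0 and 34.3 CPM (ratio 2.80, 2.16 to 3.65), and Mt1 and Hemgn were the other 2. Car1, the carbonic anhydrase of early erythroid cells, was lower at 25.4 and 55.1 CPM. Car1 was higher in members when cells were not thinned, a log2 ratio of 0.31.

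Most cell cycle genes at the floor were higher. Of 25 G1/S genes at the floor, 22 were higher and none lower (median log2 ratio 1.06), and of 22 G2/M genes 16 were higher and none lower (0.998). Some of these genes, such as Ube2c and Spc24, reached the floor only through members, so the counts follow in part from the floor. The sums of the lists below do not use it. Members were the deeper cells, and the medians were smaller among cells of 6000 to 14000 UMIs. There 15 of 22 G1/S genes were higher (0.69) and 12 of 20 G2/M genes (0.73), with none lower. Ube2c, the E2 enzyme of the anaphase-promoting complex, stood at 104 CPM in members and 22.0 in Pf4-null cells (ratio 4.75, 3.53 to 6.49). Spc24, a kinetochore subunit, stood at 78.4 and 11.95 CPM (ratio 6.56, 4.44 to 9.998). Mcm5, a subunit of the replicative helicase, stood at 128 and 39.3 CPM (ratio 3.26, 2.58 to 4.15). Summed G1/S genes stood at 3318 and 1643 CPM (ratio 2.02) and G2/M genes at 4229 and 2123 CPM (ratio 1.99). Per cell, 251 members or 39.1% had over 20 UMIs of the 2 lists, against 63 Pf4-null cells or 7.28%; 43 and 25 cells lay within 2 UMIs of that limit.

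Members were also compared with Pf4-null cells of like cell cycle content. With at most 10 such UMIs there were 210 members and 543 Pf4-null cells, in which by the choice of cells G1/S genes differed little (ratio 1.06). In these cells Gp1bb stood at 50.8 and 9.21 CPM (ratio 5.52, 2.90 to 11.0). Itga2b had a ratio of 2.65 (2.18 to 3.22), Tuba8 4.96 (2.96 to 8.49), Gp5 3.69 (2.42 to 5.67) and the summed receptor list 1.33 (1.25 to 1.41), although the median log2 ratio of the receptor genes was -0.03 there against 0.27 over all cells. The ratios of Gp1bb, Itga2b, Tuba8 and Gp5 in cells with few cell cycle transcripts were thus close to those over all cells. Stem cell genes stayed lower there: Procr stood at 54.0 and 175 CPM (ratio 0.308, 0.209 to 0.441) and the LT-HSC list at 3568 and 6258 CPM (0.570, 0.544 to 0.597). Among cells with over 20 such UMIs, 251 members against 63, the ratios were 2.67 for Gp1bb (1.29 to 6.38), 1.66 for Itga2b (1.22 to 2.32), 0.711 for Procr (0.268 to 2.20), 0.973 for Treml1 (0.437 to 2.45), 0.976 for Gata1 (0.575 to 1.74), 1.34 for Gp9 (0.841 to 2.21) and 0.565 for Sult1a1 (0.158 to 2.51). In these cells the intervals of Procr, Treml1, Gata1, Gp9 and Sult1a1 held no difference, and whether their ratios differ between the classes was not tested. Of the 232 higher and 341 lower genes, 70 and 207 were past the fold with few cell cycle UMIs.

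**Figure D2:**
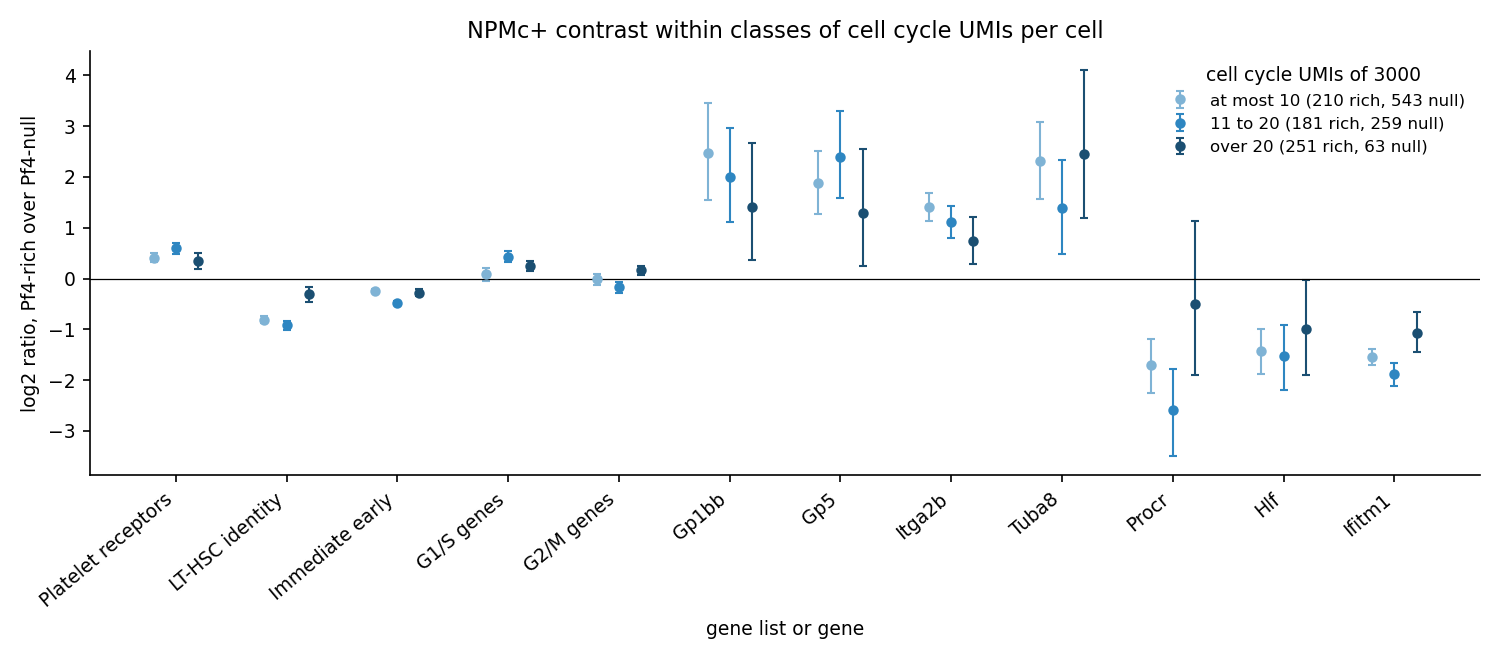
The log2 ratio of CPM, NPMc+ members over Pf4-null cells (y axis), for gene lists and genes (x axis) within 3 classes of cell cycle UMIs per cell; bars are exact 95% counting intervals. Gp1bb, Gp5, Itga2b and Tuba8 lie above 0 and the LT-HSC list and Ifitm1 below 0 in all 3 classes, while the Procr interval crosses 0 in cells with over 20 cell cycle UMIs.

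Stem cell genes were lower as a group. Of 32 LT-HSC identity genes 21 reached the floor, of which 13 were lower and none higher, with a median log2 ratio of -1.10. Procr stood at 33.8 CPM in members and 158 in Pf4-null cells, 4.69-fold lower (3.61 to 6.20). Hlf stood at 57.1 and 185 CPM, 3.24-fold lower (2.63 to 4.02), and Mecom, the stem cell factor EVI1, at 73.2 and 124 CPM, 1.70-fold lower (1.39 to 2.09). Ifitm1, an interferon-induced membrane protein high in LT-HSCs, stood at 380 and 1516 CPM, 3.99-fold lower (3.69 to 4.32). Sult1a1, a sulfotransferase, stood at 25.4 and 140 CPM, 5.51-fold lower (4.08 to 7.59). Meg3, an imprinted long noncoding RNA of LT-HSCs, stood at 9.35 and 80.9 CPM, with a UMI in 11 members and 68 Pf4-null cells; 6 of the members held 72.2% of their UMIs. Cdkn1c, the cyclin-dependent kinase inhibitor p57 of quiescent stem cells, stood at 16.6 and 60.5 CPM, 3.64-fold lower (2.48 to 5.51). The list summed to 2693 and 5650 CPM (ratio 0.477, 0.462 to 0.492).

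Genes of multipotent, lymphoid and myeloid progenitors were lower in part. Of 14 multipotent progenitor and lymphoid priming genes at the floor 7 were lower and none higher: Cd34, a progenitor sialomucin, stood at 75.3 and 181 CPM (2.40-fold lower, 1.99 to 2.91). Sox4, Cd27, Lsp1, Lmo4 and Runx2 were also among the 7. Of 9 granulocyte and monocyte genes 4 were lower (Anxa1, Cebpb, Gstm1 and Prtn3, the last a protease of neutrophil granules at 270.5 against 723 CPM), and Ms4a3, of granulocyte and monocyte progenitors, was higher (113 against 63.2 CPM). Cd48, which is used to gate LT-HSCs away from progenitors, did not separate the sets: 111 CPM in members and 109 in Pf4-null cells (ratio 1.02, 0.846 to 1.22). Flt3 was at 7.27 and 20.8 CPM, below the floor.

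Immediate early genes, which respond to signals and to handling of cells, were lower in members for 14 of 26 genes and higher for Cd69 alone (median log2 ratio -0.60). Fos stood at 2639 CPM in members and 3964 in Pf4-null cells (1.502-fold lower, 1.45 to 1.55), Junb at 852 and 1477 CPM (1.74-fold lower, 1.64 to 1.84) and Zfp36, which destabilizes cytokine mRNAs, at 370 and 724 CPM. Jun stayed within the fold at 2185 and 2561 CPM. Interferon-stimulated genes were lower for 5 of 18 (Ifi203, Rtp4, Oasl2, Trim30a and Ly6a) and higher for 1, Ifi47. In the TGF-beta pathway Tgfb1 was higher while Eng, Skil and Smad7 were lower, of 6 genes at the floor. Skil met both limits in 19 of 22 alternatives and Smad7 in 16. With few cell cycle UMIs their log2 ratios were -0.35 and -0.08, within the fold. Eng is a co-receptor of the pathway, and Skil and Smad7 are feedback inhibitors that it induces.

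In growth and housekeeping groups few genes were past the fold. Of 35 ribosome biogenesis genes 2 were higher, Ran and Hspe1 (median log2 ratio 0.31), of 55 oxidative phosphorylation genes 1, Cycs (0.24), of 79 ribosomal protein genes 1, Rps4l (0.01), and of 10 mitochondrially encoded genes none (-0.14). Of 22 heat shock genes 2 were higher, Hspa1a and Hspe1, and Xbp1, a factor of the unfolded protein response, was lower. Of 18 glycolysis and hypoxia genes only Hk2, a hexokinase, was past the fold, lower at 32.2 against 79.8 CPM. The medians of the first 2 groups lay above 0 although few of their genes reached 1.5-fold.

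Markers of cell types that a sort for LT-HSCs could let through were read in full. Of 20 B cell genes 3 reached the floor, and Ighm (410 against 38.5 CPM) and Igkc (674 against 181 CPM) were higher. The 6 members with most UMIs held 91.8% of Ighm and 76.9% of Igkc in members. Without those 6 members and the 9 top Pf4-null cells, Ighm stood at 34.1 and 33.1 CPM and Igkc at 157 and 171 CPM, and Igkc had a UMI in 39.6% of members and 41.9% of Pf4-null cells. Only 1 member held 10 or more UMIs of Ighm, and only 1 held 10 or more of Igkc. Likewise 1 member alone held over 20 UMIs of the B cell list. The difference in the 2 transcripts therefore sat mostly in 1 cell, and 7 of the 20 B cell genes had 0 UMIs in members. Of 20 T and NK cell genes 1 reached the floor, Nkg7 (554 against 260 CPM), 10 were at 0 in members, and Lck stood at 3.12 and 19.6 CPM. Macrophage and dendritic genes were lower for 1 of 5, Cd74 (144 against 447 CPM), with 7 of 18 at 0, and of 15 endothelial and stromal genes 9 were at 0 and the sum was 43.1 and 79.4 CPM. Of 10 mast cell and basophil genes 1 reached the floor, none was past the fold and the sum was 123 and 112 CPM.

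The members differed among themselves with their Pf4 content. Cells with exactly 3 UMIs, just inside the limit, and cells with 2, just outside it, were alike in some genes and not in others. Gp1bb was at 27.8 and 27.7 CPM and Gp9 at 92.6 and 94.6, while Procr was at 52.5 and 84.4, Itga2b at 333 and 199 and Ube2c at 61.7 and 23.3 CPM. The receptor and stem cell genes of members with more Pf4 stood farther from those of Pf4-null cells. In the 262 members with at least 10 UMIs of Pf4, Gp1bb stood at 116 CPM, Itga2b at 443 and Gp9 at 202, and Procr at 24.2 and Hlf at 39.4 CPM. The receptor list ran from 1908 CPM at 0 UMIs to 2062 at 3 and 2962 at 10 or more, and the LT-HSC list from 5650 to 3710 and 2277 CPM. The erythroid list did not follow: its log2 ratio to cells with 0 UMIs was 0.37 at 3 UMIs, 0.48 at 4 to 5 and 0.20 at 10 or more, and that of G2/M genes was 0.97 at 4 to 5 and 0.73 at 6 to 9. Cell cycle UMIs moved with it, from a median of 9 per cell at 0 UMIs to 11 at 3 and 21 at 10 or more, and so did depth before thinning, from a median of 7942 to 11315 and 14688 UMIs. Their part in these levels was not tested.

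**Figure D3:**
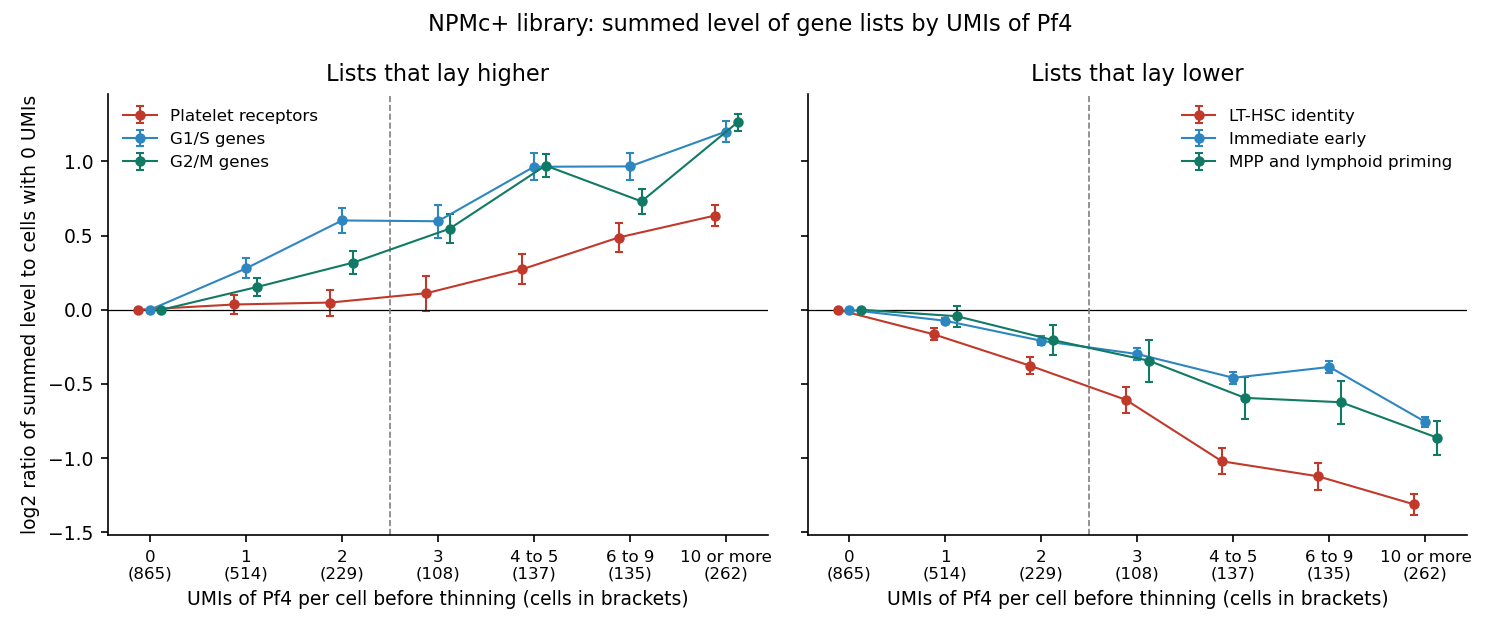
Summed level of gene lists in NPMc+ cells as the log2 ratio to cells with 0 UMIs of Pf4 (y axis), by UMIs of Pf4 before thinning (x axis, number of cells in brackets); bars are exact 95% counting intervals and the dashed line marks the limit for members. The G1/S, G2/M and receptor lists lie higher and the LT-HSC, immediate early and multipotent progenitor lists lower at 10 or more UMIs than at 3.

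Single cells carried few of these transcripts at a time. Taking the 7 platelet-lineage genes Gp1bb, Itga2b, Gp5, Gp9, Cavin2, Tuba8 and Treml1, picked for their ratios, 395 members or 61.5% (57.6% to 65.3%) had at least 2 of them and 12.6% had none. Among Pf4-null cells 147 or 17.0% (14.5% to 19.7%) had at least 2 and 52.0% had none. Any of the stem cell genes Procr, Hlf, Meg3, Sult1a1 and Mecom was found in 36.5% of members (32.7% to 40.3%) and 70.6% of Pf4-null cells. Both kinds occurred together in some cells. Of the 395 members with at least 2 of the 7 genes, 122 or 30.9% had a stem cell gene too. That share lay below the 36.5% over all members. Among the 147 Pf4-null cells with at least 2 of the 7 genes, 76 or 51.7% had one. Because zeros are common at 3000 UMIs, these shares count cells with a UMI and not cells that express a gene.

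The contrast was then tested in libraries the rule had not been built on. In Mx, NPMc+/Flt3-ITD and Flt3-ITD the same 2 sets of cells were summed (176, 68 and 118 Pf4-rich cells) and tested with the library as a block (edgeR quasi-likelihood, Benjamini-Hochberg adjusted p under 0.05 over 10836 genes). There 279 genes rose (2.57%) and 173 fell (1.60%). Without the block no gene passed, and 543 had an unadjusted p under 0.05. The 3 libraries are of 3 genotypes, so the test asks for a difference that they share. The count rested on single libraries: without Mx it was 142 and 122 and without Flt3-ITD 137 and 75.

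Of the 232 genes higher in NPMc+ members 119 rose there (51.3%), 2 fell (Ighm and Igkc) and 169 were above 1 in each of the 3 libraries. Of the 341 lower genes 71 fell (20.8%), 1 rose (Nupr1, a stress-induced chromatin protein) and 181 were below 1 in each. The 169 and 181 have no share over all genes beside them, so nothing is concluded from them. In these ratios a set with 0 UMIs counted as 3. Meg3, with 0 UMIs in Pf4-rich and 29 in Pf4-null cells of Flt3-ITD, thus had a log2 ratio of 0.49 there. Gp1bb was at 26.5 CPM in Pf4-rich and 3.66 in Pf4-null cells of Mx, 68.6 and 5.19 in NPMc+/Flt3-ITD, and 33.9 and 5.61 in Flt3-ITD. All 3 pairs lay in the same order as in NPMc+, with a shared log2 fold of 3.07 (edgeR, Benjamini-Hochberg adjusted p = 4.9e-09). Itga2b was at 142 and 56.2 CPM in Mx, 319 and 99.5 in NPMc+/Flt3-ITD, and 198 and 65.9 in Flt3-ITD (log2 fold 1.53, edgeR adjusted p = 5.44e-13). Gp5 was at 66.3 and 16.1, 108 and 20.6, and 62.1 and 15.4 CPM in the same order of libraries (2.14, edgeR adjusted p = 2.66e-10). Gp9 (1.39, edgeR adjusted p = 2.58e-08), Cavin2 (2.51, 2.04e-07), Tuba8 (1.90, 1.29e-06), Gata1 (2.18, 1.6e-09) and Rap1b (0.95, 1.98e-09) rose too. For Gp1bb, Itga2b, Gp9 and Rap1b, levels in NPMc+ members were above those of Pf4-rich cells in the 3 libraries. For the same genes, levels in NPMc+ Pf4-null cells were also above those of Pf4-null cells in the 3 libraries.

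By list, 9 of 24 receptor genes rose in the 3 libraries and none fell, 7 of 37 cytoskeleton genes rose and none fell, and 30 of 47 G1/S and 37 of 53 G2/M genes rose and none fell. Ube2c rose by a log2 fold of 2.63 (edgeR adjusted p = 7.91e-13). Of 29 LT-HSC genes 3 fell and none rose: Ifitm1 (-1.32, edgeR adjusted p = 2.41e-18), Hlf (-0.78, 0.000286) and Alcam, an adhesion molecule (-1.46, 0.0229). Hlf was no longer called without Flt3-ITD, with Pf4-rich cells taken from 2 UMIs, or by DESeq2. Summed over the LT-HSC list, the ratio of Pf4-rich to Pf4-null cells was 0.736 in Mx and 0.697 in NPMc+/Flt3-ITD. In Flt3-ITD it was 0.473 (0.441 to 0.506), near the 0.477 of NPMc+. Procr stood at 89.0 CPM in Pf4-rich and 121 in Pf4-null cells of Mx and 31.1 and 61.1 in Flt3-ITD. In NPMc+/Flt3-ITD it stood at 39.2 and 31.6 CPM, and of the 4 libraries only this one had it higher in Pf4-rich cells. Its shared log2 fold was -0.48 (edgeR adjusted p = 0.213). Of 21 multipotent progenitor genes 9 fell, and of 22 granulocyte and monocyte genes 12 fell. Not every fall meant fewer cells with a UMI. In Mx S100a8 stood at 5.68 CPM in Pf4-rich and 139 in Pf4-null cells, with a UMI in 1.7% and 1.6% of them. S100a9 had a UMI in 3.41% and 1.42% of these cells, whereas Prtn3 had one in 57.4% and 78.6%.

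**Figure D4:**
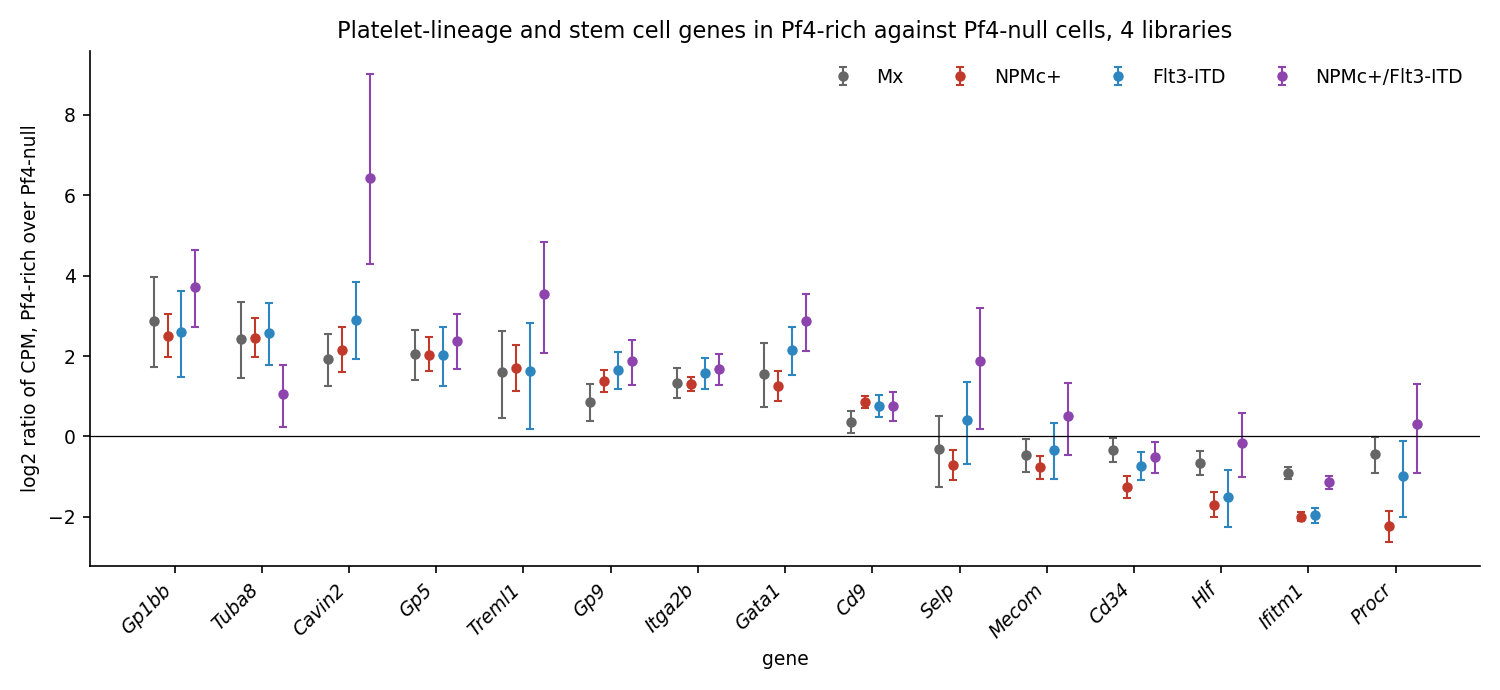
The log2 ratio of CPM, Pf4-rich over Pf4-null cells (y axis), for 15 genes (x axis) in the 4 libraries; points are single libraries and bars exact 95% counting intervals. Gp1bb to Cd9 lie above 0 in every library, whereas Selp, Mecom and Procr differ in sign between libraries and Procr is lowest in NPMc+.

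Whether the NPMc+ contrast differed from that of the 3 libraries was tested as an interaction over 10524 genes. NPMc+ enters as 1 library, so its own spread is not measured and is assumed to be that of the 3 others. By this test the log2 ratio of NPMc+ lay above that of the 3 libraries for 4 genes (0.0380%) and below it for 14 (0.133%). The 4 were Ighm, Igkc, Igha and Jchain, immunoglobulin genes or their joining chain. In NPMc+ 1 member held 1748 UMIs of the B cell list, and in Flt3-ITD 1 Pf4-null cell held 372. The log2 difference of Igkc was 4.05, and 1.33 and not called without Flt3-ITD. The 14 included 3 LT-HSC genes: Ltb, lymphotoxin beta, at 50.9 and 192 CPM in NPMc+ but 333 and 261 in Mx, 245 and 240 in NPMc+/Flt3-ITD, and 90.4 and 170 in Flt3-ITD (log2 difference -1.90, edgeR adjusted p = 1.04e-05), Procr (-1.75, edgeR adjusted p = 0.00177) and Ly6a, the stem cell antigen Sca-1 (edgeR adjusted p = 0.0303). The calls of Procr and Ly6a were lost with a second random thinning (log2 differences -1.04 and -0.85) and without the Mx library (-1.69 and -0.88), whereas that of Ltb was lost by DESeq2 alone (-1.76). DESeq2 called none of the 18, with 64 genes at an unadjusted p under 0.05. No platelet receptor, granule, cytoskeleton or megakaryocyte factor gene was called; for Gp1bb the log2 difference was -0.57 (edgeR adjusted p = 0.947) and for Itga2b -0.22 (edgeR adjusted p = 0.952), which does not show that the contrasts are alike.

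**Figure D5:**
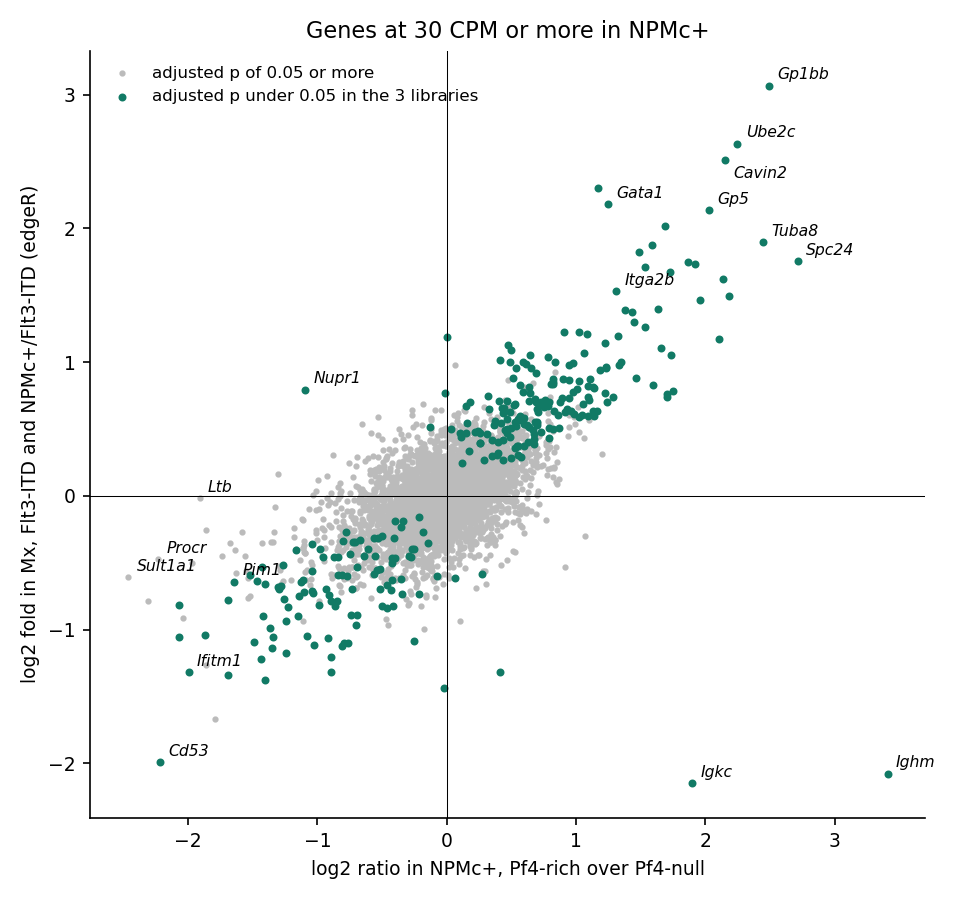
Each gene at 30 CPM or more in NPMc+ by its log2 ratio in that library, Pf4-rich over Pf4-null cells (x axis), and its log2 fold in the 3 other libraries (y axis, edgeR); green points had an adjusted p under 0.05 in the 3 libraries. Gp1bb, Ube2c, Cavin2 and Gp5 lie far up on both axes, while Ltb lies low in NPMc+ and near 0 in the others.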

How the data were processed

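The authors deposited, per the labels' protocols, 1 table of 10x 3' v2 UMI counts per library, and the submitters' processing notes name STARsolo, STAR 2.7.0c and mm10; the gene annotation is not given in the sources used here. Whole-number counts were used as deposited. Barcodes were kept from 1000 UMIs and 500 genes up, with no more than 10% of UMIs mitochondrial, then thinned at random to 3000 UMIs and summed per set of cells. In NPMc+ a gene counted as past the fold at 1.5 with a mean of at least 30 CPM, with exact 95% intervals from the binomial split of the UMIs; a set with 0 UMIs was given 3 for a ratio. The 3 other libraries and the interaction were fitted in edgeR 4.0.16 (quasi-likelihood, library as a block, no TMM), with DESeq2 1.42.0 as an alternative. The edgeR fits and the ratios were tested on simulated data. The 3 libraries are single samples of different genotypes, so p-values measure the spread of the contrast between them. The sets of 1 library are paired by being cells of that library.

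Named genes were the 12 highest and 12 lowest NPMc+ ratios, the 3 members of each list farthest from no difference, the 5 lowest adjusted p in each direction of both tests, and lineage genes always shown; F2r, Plek, Fyb, Fermt3, Esam, Pear1, Erg, Cdkn1c, the other list members named beyond the rule, the genes of the interaction beyond the first 5 and the 7 genes counted per cell were chosen after their values were seen. The members, gene lists and rules were all chosen with earlier results of these data known. The B cell, T and NK cell, mast cell and endothelial lists had too few genes at the floor for a median. Some genes that the rule or the lists take are not reported here. Promoters were matched by symbol to RefSeq.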

Additional observations from a re-analysis of the deposited data

Results flagged for a closer look

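For 18 genes the edgeR interaction test with Benjamini-Hochberg adjustment called the Pf4-rich against Pf4-null contrast of NPMc+ different from that of the other 3 libraries. NPMc+ is 1 library, so the test takes its spread from the others, and DESeq2 called 0 (64 genes at an unadjusted p under 0.05). Of the 18, 4 had a larger log2 ratio in NPMc+: Ighm by 5.48, Igkc by 4.05, Jchain by 3.96 and Igha by 3.87. Without Flt3-ITD the Igkc difference was 1.33 and no longer called. One member held 1748 B cell list UMIs of its 3000, and without the top cells Igkc stood at 157 CPM in members and 171 in Pf4-null cells.

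The other 14 had a smaller log2 ratio in NPMc+. Stem cell genes were Ltb, with a difference of -1.90, Procr with -1.75 and Ly6a, which encodes Sca-1, with -1.0. Immediate early and stress genes were Zfp36 (-0.92), Ier2 (-0.57), Klf9 (-1.32) and Nupr1 (-1.89), a stress-induced chromatin protein. Inflammatory and signalling genes were the chemokines Ccl3 (-2.62) and Cxcl2 (-2.24) and the kinase gene Pim1 (-1.0). Cd74, the invariant chain of MHC class II, differed by -1.23, the purine salvage gene Hprt by -1.04, Limd2 by -0.93 and Myl10 by -1.02. With a second random thinning 10 of the 18 were called, among 5 larger and 14 smaller.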

How the results depend on the processing

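Counted once per alternative, list medians in NPMc+ stayed within their intervals 427 times, moved out of them 11 times and, where called, reversed 2 times; named-gene ratios did so 2035, 294 and 20 times. Medians near 0 changed sign more often: that of megakaryocyte factors kept it in 9 of 22 alternatives, of glycolysis genes in 14 and of granule genes in 15, and that of platelet receptors in 21, being -0.03 with few cell cycle UMIs. The number of genes past the fold moved with the floor, from 543 higher and 952 lower at 10 CPM and 1756 and 2851 without a floor to 73 and 76 at 100 CPM, and was 665 and 734 in female cells, which were few (83 members against 210). Between 6000 and 14000 UMIs it was 211 and 322, sharing 130 and 228 genes. The median of macrophage and dendritic genes became 0.04 in female cells, and that of G2/M genes -0.04 with few cell cycle UMIs, a choice of cells made on those genes. In those cells the log2 ratios of Cdca8 (-0.63), Pclaf (-0.09), Spc24 (-0.21), Tk1 (-2.33) and Tuba1b (-0.24) turned negative. That of Car1 was 0.31 without thinning, and in female cells those of Nupr1 and Pecam1 were 0.10 and 0.28.

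Ighm turned to -2.19 with Pf4 read after thinning and -0.06 without cells of both sexes' UMIs. It was -0.76 without cells with 3 or more UMIs of the B cell list, -0.05 in male cells and -0.09 between 6000 and 14000 UMIs. Igkc turned to -2.01, -0.10, -0.72 and -0.21 in the first 3 and the last of these 5 settings. It was -0.16 without the 5% of cells with most UMIs, -0.06 with members from 6 UMIs of Pf4 and -0.23 in female cells. The B cell limit was read before thinning and chose cells on these same transcripts. It took out 63.7% of members and 39.9% of Pf4-null cells, which left 233 and 520, so its values follow in part from that choice.

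In the 3 other libraries, genes that rose and fell numbered 179 and 94 at 2000 UMIs, 100 and 24 with DESeq2, 179 and 100 with members from 2 UMIs of Pf4, 528 and 552 with NPMc+ added, and 137 to 289 and 75 to 158 with 1 library left out. Without the library block, which pairs the 2 sets of a library, they numbered 0 and 0, with 543 genes at an unadjusted p under 0.05 in edgeR. The log2 fold of Cpa3 ran from -0.79 to 0.41 with 1 library left out. Without cells with 3 or more UMIs of the B cell list it became 0.34, and that of Igkc 0.63. With NPMc+ added, the log2 fold of Ighm became 1.63, of Igkc 1.30 and of Nupr1 -0.18. The interaction called a lower log2 ratio in NPMc+ for 3 genes at 2000 UMIs, 9 with TMM and 2 with members from 2 UMIs of Pf4. DESeq2 called 0 higher and 0 lower (64 unadjusted). Leaving out 1 library gave 4 to 8 genes with a higher log2 ratio in NPMc+ and 13 to 24 with a lower one. The cause of these changes was not tested. The 3-library test among cells with few cell cycle UMIs was not run, since 2 libraries had too few cells.

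The share of members with Pf4 read after thinning was 11.33% in NPMc+, 2.034% in Mx, 0.7355% in NPMc+/Flt3-ITD and 1.793% in Flt3-ITD. From 2 UMIs of Pf4 it was 36.93%, 13.42%, 4.577% and 9.235% in the same order, and from 6 UMIs 16.80%, 2.461%, 0.5721% and 2.131%. By sex it was 30.82% in male and 16.77% in female NPMc+ cells, 3.105% in female Flt3-ITD and 5.587% in female NPMc+/Flt3-ITD cells. The limits of 6000 to 14000 UMIs and the cells with few cell cycle UMIs were chosen after seeing the data. So was, in the 3 libraries, leaving out cells with 3 or more UMIs of the B cell list. With 1 library per genotype, no error between animals can be given, and genes below 30 CPM were too shallow to compare.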
